A study of Mus musculus with 4 samples.

Results

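The 5 genes described here are Mat2a, Psat1, Slc1a4, Elovl6 and Gpam, 5 of 21883 protein-coding mouse genes with a position. These 5 act in the handling of methyl groups, serine and lipids. They were chosen by the measured peaks themselves, as genes that the authors paired with an anti-MYCN peak or that had one inside or at most 10 kb away, so their peaks are a description and no test is given. The peaks came from CUT&RUN, in which an antibody guides a nuclease to cut out the chromatin around a bound protein, on mouse liver. There were 4 libraries, 1 in each group: liver tumors driven by MYCN and AKT with anti-MYCN, input chromatin of those tumors, matched non-tumor liver with anti-MYCN (the library titled NT_Mync), and input of that non-tumor liver. With 1 library per group no difference between tissues can be tested. The labels do not state how MYCN and AKT were introduced, the strain, sex or age of the mice, or whether tissues were pooled. The files hold no RNA values, so the tissue labels were not checked against marker genes.

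MYCN is a MYC-family transcription factor that, paired with MAX, binds short sequences called E-boxes, and MYC-family proteins are known for raising nutrient uptake and biosynthesis in tumors. Serine made or taken up by a cell feeds the folate cycle. Its one-carbon units supply nucleotide synthesis and the remethylation of homocysteine to methionine. Methionine is then turned into S-adenosylmethionine, the donor of most methylation reactions. The liver is also a main site of fatty acid synthesis, and the fatty acids are elongated and then joined to glycerol to make phospholipids and stored fat.

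All 6 peaks of these genes were in the tumor list of 1617 peaks, and 0 were in the non-tumor list of 55. A tumor peak lay within 10 kb of 2 of the 5 genes, Elovl6 and Gpam, beside 3.65% of all protein-coding genes with one in the gene or within 10 kb. The authors paired a tumor peak with all 5, beside 4.72% of all protein-coding genes. In non-tumor liver 0 of the 5 had a peak by either measure, where 0.0868% of protein-coding genes had one in the gene or within 10 kb and 0.133% had a paired one. The first 2 counts follow from how the genes were chosen, and few genes of any kind had a non-tumor peak. Of the 6 peaks, 3 lay upstream and 3 downstream of their gene, and 0 lay inside it. Over the whole tumor list 46.1% of peaks were upstream, 25.9% downstream and 23.8% inside their paired gene. On either side of the 10 kb distance, the gaps between peak and gene were 4340 and 4998 bp within it and 30847 bp for the next.

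**Figure D1:**
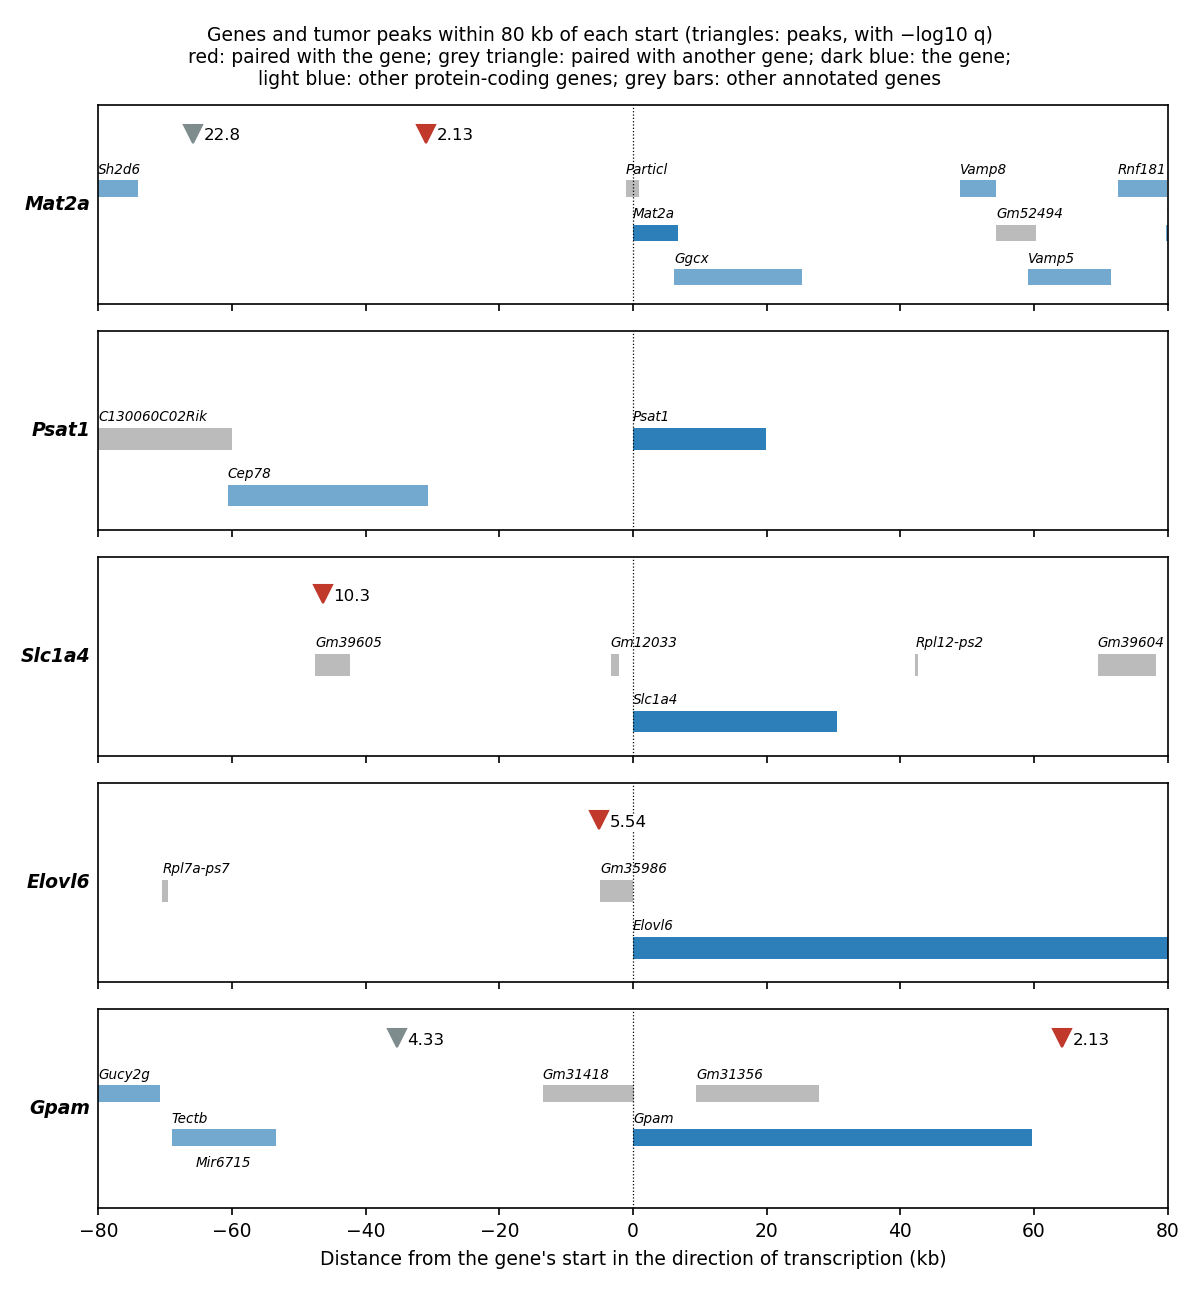
Annotated genes (bars) and tumor peaks (triangles, with their −log10 q) within 80 kb of the start of each of the 5 genes, with distance in kb from that start in the direction of transcription on the horizontal axis; bars cut at the edge run on. No peak touches the dark blue body of any of the 5 genes, and the closest to a start is the Elovl6 peak of 5.54.

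The promoters of the 5 genes were searched for E-box letters, on both strands, in windows of 300 bases that run from 250 before to 50 after each annotated start (RefSeq sequence, GRCm38.p6). All 5 genes had a window, and Psat1 and Gpam had 2 each, which made 7. The canonical E-box CACGTG was in 0 of the 7 windows, and 7.15% of all 32851 windows held it. With CACATG, another E-box, added, the count was still 0 of 7, beside 20.4% of all windows. At such shares, counts of 0 in 7 windows say little. The looser pattern CANNTG, which includes both, was in 1 of the 7, the inner window of Gpam, beside 72.3% of all windows. CACGCG and CACGAG, known as noncanonical E-box letters, do not overlap these patterns and were searched after the other results were seen. CACGCG was in both Psat1 windows (9.27% of all windows) and CACGAG in the Elovl6 window (6.47% of all windows). No tumor peak reached any of the 7 windows, so these letters describe the promoters and not bound sites. The 3 windows with a match are shown because they alone of the 7 hold either of these noncanonical letters; capitals mark CACGCG or CACGAG on either strand.
Elovl6, chr3:129532136-129532435, plus strand: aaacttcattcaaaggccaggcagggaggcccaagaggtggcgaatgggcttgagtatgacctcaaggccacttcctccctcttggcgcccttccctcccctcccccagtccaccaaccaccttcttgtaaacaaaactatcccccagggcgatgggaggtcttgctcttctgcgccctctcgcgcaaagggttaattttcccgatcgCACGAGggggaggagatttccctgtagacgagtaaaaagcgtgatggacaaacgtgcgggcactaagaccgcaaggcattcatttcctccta
Psat1 outer start, chr19:15925010-15925309, minus strand: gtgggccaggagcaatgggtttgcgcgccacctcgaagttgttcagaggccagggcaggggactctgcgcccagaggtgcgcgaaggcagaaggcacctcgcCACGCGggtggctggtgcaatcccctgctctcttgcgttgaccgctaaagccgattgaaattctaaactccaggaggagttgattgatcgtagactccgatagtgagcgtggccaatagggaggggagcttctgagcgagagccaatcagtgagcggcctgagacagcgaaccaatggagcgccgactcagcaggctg
Psat1 inner start, chr19:15924573-15924872, minus strand: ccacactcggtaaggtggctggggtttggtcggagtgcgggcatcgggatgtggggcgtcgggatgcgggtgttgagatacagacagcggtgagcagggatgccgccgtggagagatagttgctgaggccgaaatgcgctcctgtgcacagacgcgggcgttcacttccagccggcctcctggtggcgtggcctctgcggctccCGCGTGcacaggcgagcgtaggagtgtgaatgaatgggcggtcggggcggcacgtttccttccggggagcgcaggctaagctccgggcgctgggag
In the Elovl6 window the match begins at base 209, counted from the 5′ end, ahead of the start. The gap from this window to the Elovl6 peak was 4748 bp, whereas the Psat1 windows lay 658291 and 658728 bp from the Psat1 peak. The windows were 55.7% to 68% G and C, against a median of 52.7% over all windows. The shares over all windows were not matched for this content.

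Mat2a encodes the catalytic subunit of the methionine adenosyltransferase that makes S-adenosylmethionine in most tissues and in dividing liver cells, while Mat1a encodes the form of resting adult liver. The gene lies on the minus strand at chr6:72432796-72439556 (GRCm38), 6761 bp long. Its tail overlaps that of Ggcx, which encodes the carboxylase that acts with vitamin K on clotting factors. Its paired tumor peak, chr6:72470403-72470751, was 349 bp long, the longest of the 6, and lay 30847 bp upstream. Its −log10 q, a score the authors' peak caller gave each peak against input, was 2.13, which ranked it 1527 to 1529 of 1617 because 3 peaks shared this value. The Mat2a peak was thus near the bottom of the tumor list. No annotated gene lay between the peak and Mat2a apart from the long noncoding RNA gene Particl, which overlaps the Mat2a start from the opposite strand and was 29788 bp from the peak. Stronger tumor peaks lay farther from Mat2a. One of −log10 q 22.8 (rank 233 to 234) was 65808 bp away and paired with Sh2d6, the next protein-coding gene upstream, and one of 41.1 (rank 171 to 172) lay 126354 bp away inside Sftpb, the surfactant protein B gene.

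Psat1 encodes phosphoserine aminotransferase, the middle enzyme of the pathway from a glycolytic intermediate to serine. The gene lies on the minus strand at chr19:15905123-15925059. Its paired peak, chr19:15266098-15266282, was 185 bp long and lay 638841 bp downstream, the farthest of the 6. Of the 416 downstream peaks whose gene was found, 93.0% lay closer to their gene. The −log10 q was 7.88, shared by 33 peaks at ranks 643 to 675. Psat1 was the nearest protein-coding gene to this peak, but Tle4, a transcriptional corepressor gene on the other side, was almost as far at 667915 bp. There were 7 annotated genes between the peak and Psat1, 0 of them protein-coding. The nearest annotated gene of any kind was the long noncoding RNA gene Gm46645, at 23885 bp. This was the single tumor peak within 1 Mb of Psat1.

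Slc1a4 encodes ASCT1, a transporter that exchanges serine, alanine, cysteine and other small neutral amino acids across the cell membrane. The gene lies on the minus strand at chr11:20302180-20332713. Its peak, chr11:20379032-20379204, was 173 bp long, lay 46319 bp upstream and had the highest −log10 q of the 6, 10.3, at rank 492 to 493. It was the only one of the 6 with a −log10 q of 10 or more, a level that 501 tumor peaks (31.0%) reached. The peak lay inside the annotated long noncoding RNA gene Gm39605 (chr11:20375109-20380262, minus strand), and the closest protein-coding gene after Slc1a4 was Cep68, a centrosome gene, at 129608 bp. Within 1 Mb of Slc1a4 were 3 other tumor peaks, and 2 of them were stronger: 92.5 at 603823 bp, paired with Lgalsl, and 31.2 at 269896 bp, paired with Actr2.

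Elovl6 encodes the elongase that lengthens palmitate to stearate and is a known target of the lipogenic factor SREBP in liver. The gene lies on the plus strand at chr3:129532386-129638495 and is 106110 bp long. Its peak, chr3:129527270-129527388, was the shortest of the 6 at 119 bp. It was centred 5057 bp upstream of the start, and the gap to the gene was 4998 bp. Of the 718 upstream peaks whose gene was found, 11.3% had a smaller gap. The −log10 q was 5.54, a value shared by 73 peaks at ranks 844 to 916, below the list median of 6.35. The peak was 79 bp beyond the end of Gm35986 (chr3:129527467-129532388), a long noncoding RNA gene on the minus strand whose start overlaps that of Elovl6. No other tumor peak lay within 1 Mb of Elovl6.

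Gpam encodes the mitochondrial acyltransferase that joins the opening fatty acid to glycerol phosphate, the entry step of triglyceride and phospholipid synthesis. The gene lies on the minus strand at chr19:55067635-55127319, and it was alone among the 5 in having 2 paired peaks, both downstream. The nearer, chr19:55063034-55063295, was 262 bp long and lay 4340 bp beyond the end of the gene, 64155 bp from its start. Its −log10 q of 2.13 was the same value as that of the Mat2a peak, at ranks 1527 to 1529. The farther, chr19:54796973-54797124, was 152 bp long, lay 270511 bp away, and had a −log10 q of 7.88, the same value as the Psat1 peak. The peak closest to Gpam was therefore the weaker of the pair. By distance from the start, the closest tumor peak was neither of these but one 35368 bp upstream (−log10 q 4.33), which the authors paired with Tectb, an inner ear matrix gene.

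**Figure D2:**
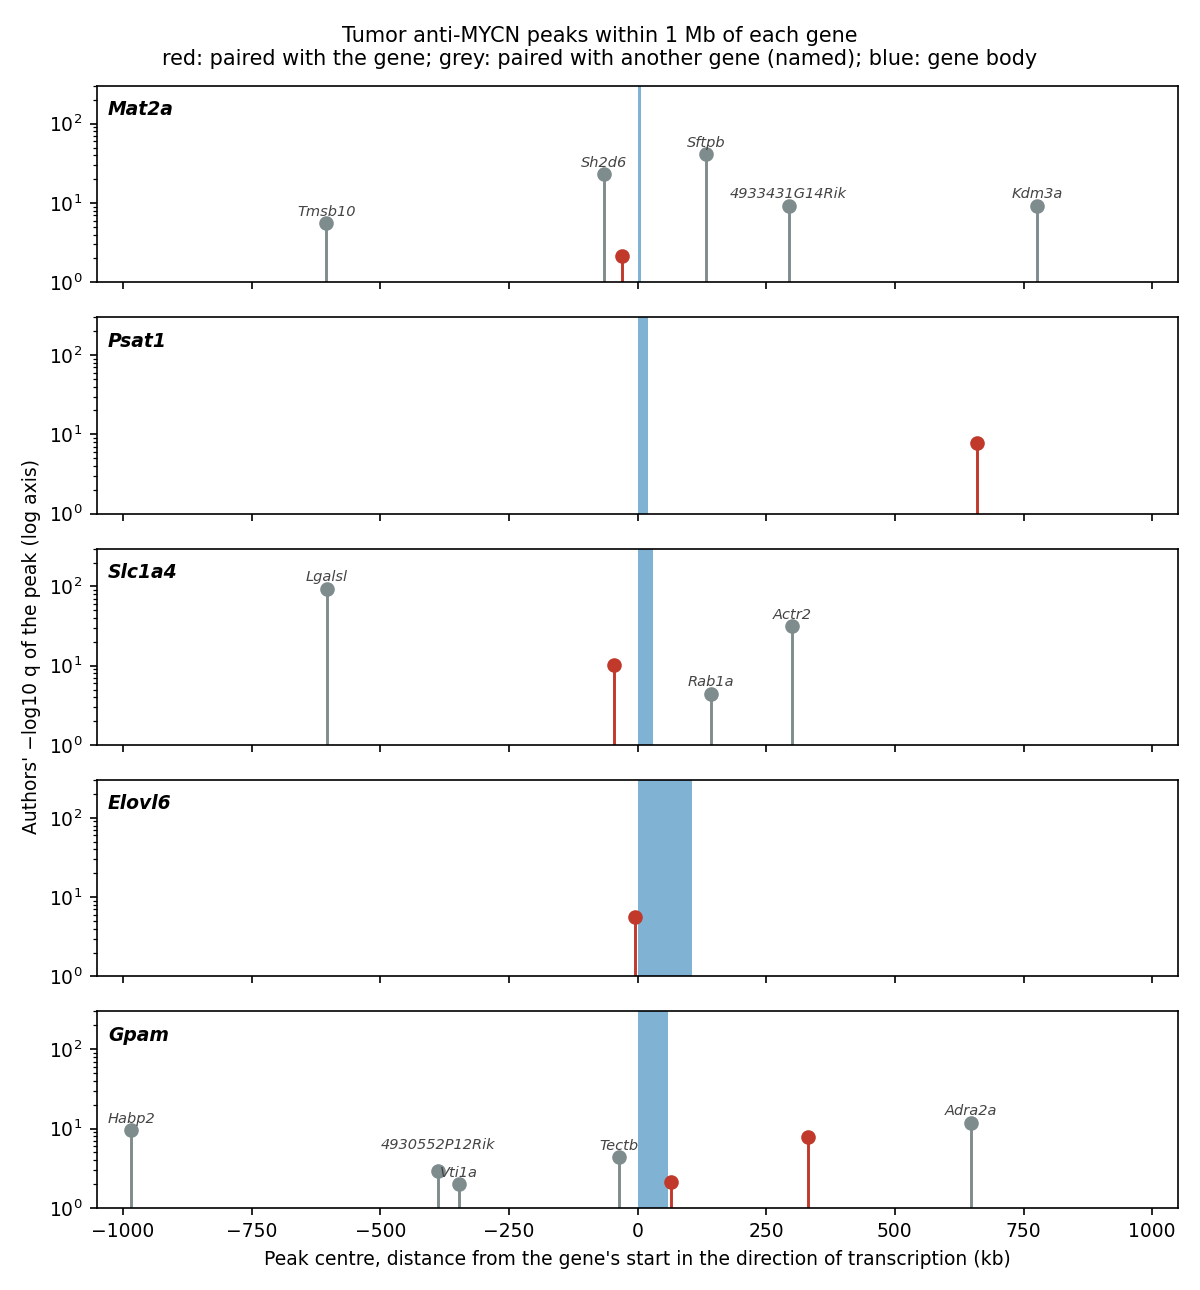
Tumor peaks within 1 Mb of each gene, by distance of the peak centre from the gene's start in the direction of transcription (kb) and by the authors' −log10 q on a log axis. Red points are paired with the gene and grey points with the gene named above them; Psat1 and Elovl6 have 1 peak each in this range, and the tallest points, near Mat2a and Slc1a4, are grey.

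The surroundings of the 5 genes differed in how many tumor peaks they held. Within 1 Mb there were 7 peaks around Gpam, 6 around Mat2a, 4 around Slc1a4 and 1 each around Psat1 and Elovl6. The median protein-coding gene had 1, and percentiles 10 and 90 over those genes were 0 and 3. Gpam and Psat1 share chromosome 19, whose 705 protein-coding genes had a median of 2. Within 100 kb there were 2 peaks at Mat2a and Gpam, 1 at Slc1a4 and Elovl6 and 0 at Psat1, against a median of 0. These counts include the peaks that chose the genes. In non-tumor liver the closest peak on the same chromosome was 40636469 bp from Mat2a, 23335619 bp from Psat1, 88678994 bp from Slc1a4, 109665421 bp from Elovl6 and 15806702 bp from Gpam. None of the 5 genes was thus near a non-tumor peak, in a list with 1 or 2 peaks on each of these chromosomes.

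Of the 6 peaks, 0 lay in a cluster (3 or more peaks with neighbours at most 10 kb apart) or on a scaffold, as 135 tumor peaks did, and 0 overlapped a non-tumor peak, as 14 of the 1617 tumor peaks (0.866%) did. Their lengths ran from 119 to 349 bp with a median of 179, against a median of 188 over the tumor list. Their −log10 q ran from 2.13 to 10.3 with a median of 6.71, against 6.35 over the list, and 3 of the 6 were at or above the list median. The 2 longest, that of Mat2a and the nearer one of Gpam, were the 2 weakest.

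**Figure D3:**
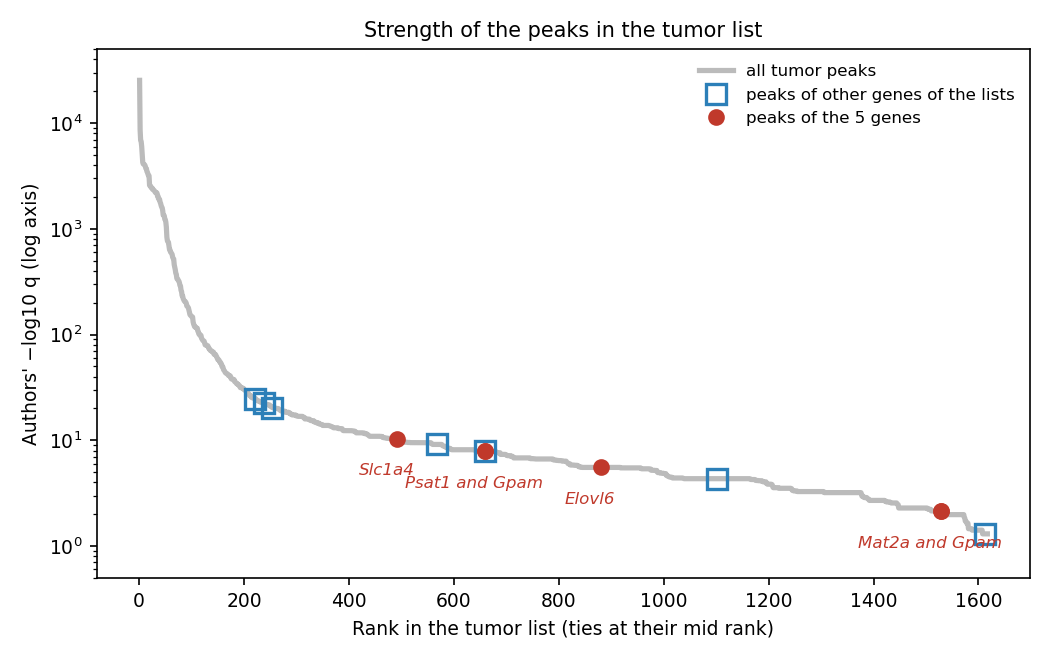
The authors' −log10 q (log axis) of the 1617 tumor peaks by rank, with the 6 peaks of the 5 genes as red points and those of other genes of the pathway lists as open blue squares; tied peaks stand at their mid rank. The red points run from rank 492 to 1529. The squares, of 7 peaks, run from rank 219 to 1617, with 3 of them between 219 and 254.

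The tumor peaks most like these 6, taken as the 2 of the same place with the closest −log10 q and then the closest length, belonged to genes outside the pathway lists. For Elovl6 they were paired with Mms22l and Rab39b, each with the same −log10 q of 5.54 and the same length of 119 bp, among 743 other upstream peaks. For Psat1 they were paired with Hus1 and Bex6 (both 7.88, 191 and 206 bp), and for the farther Gpam peak with Gm15881 and 4930483O08Rik (both 7.88, 143 and 133 bp), among 415 other downstream peaks. For Slc1a4 they were Cox6b2 (10.3, 499 bp) and Aldoart2 (10.3, 131 bp). For Mat2a they were Slc27a6 (2.13, 133 bp) and Dync1i2 (2.15, 161 bp), and for the nearer Gpam peak Slc22a12 (2.15, 207 bp) and BC006965 (2.15, 164 bp). Of the paired genes, Slc27a6 and Slc22a12 encode transporters, of fatty acids and of urate.

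The rest of the pathways was read from 4 lists with 144 genes, which include the 5. Of the 46 genes of one-carbon and serine metabolism, 0 had a tumor peak in the gene or within 10 kb, beside 3.65% of all protein-coding genes. A paired peak was listed for 2, Mat2a and Psat1 themselves, beside 4.72% of all. Phgdh and Psph, on either side of Psat1 in serine synthesis, the serine hydroxymethyltransferase genes Shmt1 and Shmt2, the folate enzyme gene Mthfd2 and the liver form Mat1a had no peak by either measure. Of the 15 genes of serine and neutral amino acid transport, 0 had a tumor peak within 10 kb and 1, Slc1a4, had a paired peak, beside the same shares. Its close relative Slc1a5 and the exchanger genes Slc7a5 and Slc3a2 had none. With so low a share over all genes, counts of 0 in lists of this size say little about these genes.

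A few lipid genes other than Elovl6 and Gpam also had peaks, at shares not far from those over all protein-coding genes. Of the 43 genes of fatty acid synthesis, elongation and desaturation, 3 (6.98%) had a tumor peak in the gene or within 10 kb, and of the 40 of glycerolipid synthesis and storage, 3 (7.50%), against 3.65% of all protein-coding genes. Elovl6 and Gpam, which were chosen by their peaks, raise both shares. Without them 2 of 42 and 2 of 39 genes had such a peak, not far from the 3.65% of all. By the authors' pairing 3 genes of each list (6.98% and 7.50%) had a peak, against 4.72% of all. Without Elovl6 and Gpam the paired genes were again 2 of 42 and 2 of 39, near the 4.72% of all. Counts this small stand on single genes, and 0 genes of any of the 4 lists had a non-tumor peak by either measure.

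**Figure D4:**
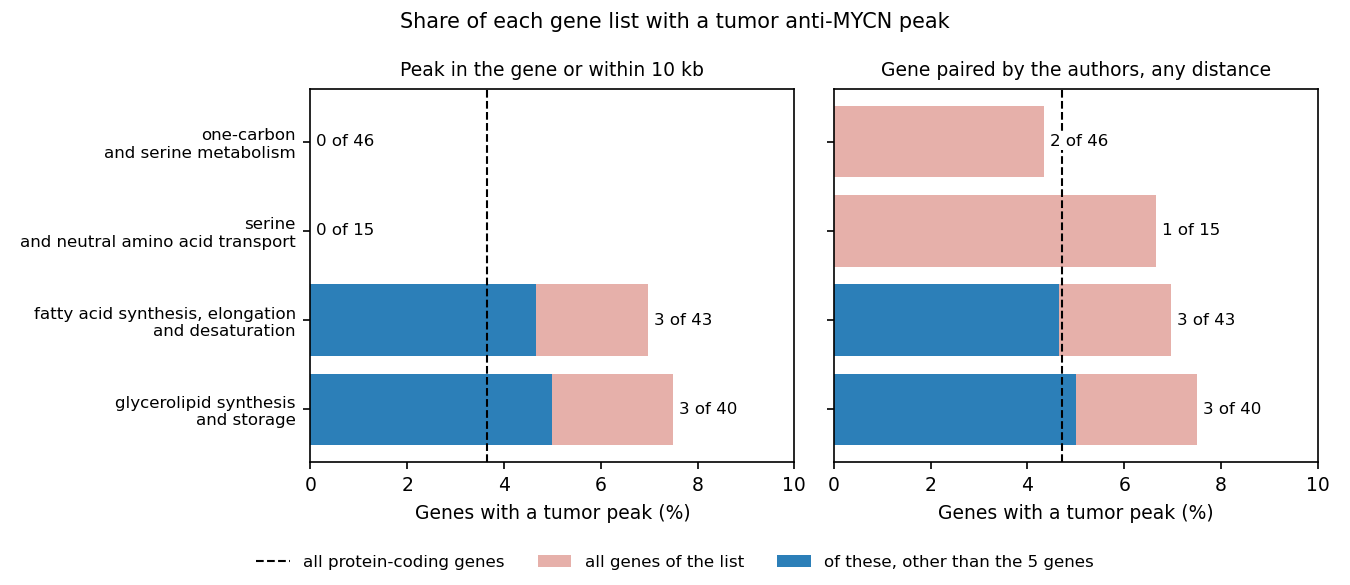
Percent of the genes of each list with a tumor peak, in the gene or within 10 kb (left) and by the authors' pairing at any distance (right), with the count beside each bar and the share of all protein-coding genes as a dashed line (3.65% and 4.72%). Blue marks genes other than the 5; the upper pair of lists have no blue on either side.

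Elovl1, an elongase gene for very long fatty acids, had the strongest peak of the lipid genes (chr4:118425224-118425554, −log10 q 24.8, rank 219 to 222). This peak was 331 bp long and centred 1485 bp upstream of the Elovl1 start, closer to a start and higher in the list than the Elovl6 peak. It was also within 10 kb of Cdc20, the next closest protein-coding gene, at 7347 bp. Acsl1, which encodes the acyl-CoA synthetase that activates long fatty acids in liver, held a peak of 20.4 (chr8:46481185-46481681, 497 bp, rank 254) inside the gene, 10396 bp after its start. A peak of 22.4 (chr7:99209299-99209485, rank 239) lay 9599 bp from Mogat2 and 26586 bp from Dgat2, and the authors paired it with Dgat2. Both genes encode acyltransferases that build triglyceride, so the peak stands between a pair of related genes. Lpin1, which encodes the phosphatidate phosphatase lipin, had 2 peaks inside it by RefSeq positions, of −log10 q 7.88 and 1.30, 16916 and 21436 bp after its start. The weaker of these 2 peaks shared the bottom of the tumor list, at ranks 1608 to 1617. The authors paired both peaks with Ntsr2, a neurotensin receptor gene, as upstream of it. The 2 peaks they paired with Lpin1 (9.14 and 4.33) lay 289617 and 276785 bp downstream. The genes of the core steps of fatty acid synthesis, Acly, Acaca and Fasn, the desaturase gene Scd1 and the regulator Srebf1 had no peak by either measure. Over all protein-coding genes 3.65% had a tumor peak within 10 kb and 4.72% a paired one, so such absences say little.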

How the data were processed

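Anti-MYCN CUT&RUN of 1 tumor and 1 non-tumor liver library was called against input by the authors, per the file's peak names, and 1 peak list per tissue was deposited. Per the submitters' processing notes, the build was GRCm38 (also given as mm10) and the tools included Bowtie2, MACS2, HOMER and deepTools; versions and settings were not stated there. The deposited q-value column was read as −log10 q of the authors' peak caller, because the tumor values start at 1.30, where q is close to 0.05. It is used only to describe and rank peaks within a list. Read counts are not in the table, so depth is unknown and no interval is given. Rows with the same interval were merged (1620 tumor rows to 1617 peaks, 61 non-tumor rows to 55). Gene positions and promoter sequences came from RefSeq tables (GRCm38.p6), with strand taken from the promoter table; 97.9% of tumor rows with a paired gene had it found with a chromosome position. Peak sequences were not used here. A gap is the difference between the facing ends of peak and gene. Tied peaks share a range of ranks. The 5 genes and the 4 lists were chosen with earlier results of these data known. Genes named are the 5, list genes with a peak, neighbouring protein-coding genes, genes of the peaks most alike, and a few list genes without a peak; neighbouring peaks and noncoding genes were named after their values were seen. Interval counting was tested on simulated data. Calculations used Python 3.11.15, NumPy 2.4.6 and pandas 2.3.3.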

Additional observations from a re-analysis of the deposited data

How the results depend on the processing

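Gaps between peak and gene were 4340 bp for Gpam and 4998 bp for Elovl6, just under 5 kb, and 30847 bp for the next. The count of the 5 genes with a tumor peak within 10 kb therefore stayed at 2 at distances of 5 and 20 kb. It also stayed at 2 without clusters and scaffolds. It was 0 when peaks under a −log10 q of 10 were left out and 0 when those under the list median were left out, since the Elovl6 peak and the nearer Gpam peak are weaker than both. By the authors' pairing at any distance it was 5. The share of protein-coding genes with a peak fell to 1.02% and 1.74% under the same 2 thresholds, where fewer peaks are counted, and was 2.99% to 4.99% under the other 4 alternatives on those genes; of all annotated genes it was 2.66%. By the authors' pairing one-carbon and serine metabolism rose from 0 to 2 genes and transport from 0 to 1. Glycerolipid synthesis fell from 3 genes to 1, Mogat2, when peaks under 10 were left out; the fatty acid list stayed at 2 or 3. Non-tumor peaks at the 5 genes stayed at 0 at 5 and 20 kb. Promoter windows with E-box letters numbered 0 for CACGTG with or without CACATG, 2 for CACGCG, 1 for CACGAG and 1 for CANNTG; the last 3 patterns were chosen after seeing the data. Without clusters and scaffolds the 6 peaks ranked between 376 and 1392, because 135 mostly stronger peaks left the list, and over the table's rows their ranks moved by 1 to 3. No paired analysis was possible because there is a single library in every group, and unknown depth limits every count of peaks.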
